A study of Schmidtea mediterranea with 24 samples.

Results

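Wound response genes are the genes that planarian tissue switches on after injury. The list used here is the study's own list of 9 such genes, taken by row identifier whatever their values were. Of these, 8 could be read in all 4 tables of values, out of 16575 genes in each table, and *follistatin* is not analysed here. The 8 are *jun-1* (SMED30025757), *fos-1* (SMED30013808), *runt-1* (SMED30022580), *nlg-1* (SMED30027052), *inhibin-1* (SMED30009429), *wnt-1* (SMED30008884), *wntless* (SMED30011055) and *glypican-1* (SMED30027983). The protein match that comes with SMED30013808, the row named *fos-1*, is JUN, so the row is called here by its listed name only.

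The worms were *Schmidtea mediterranea* of the CIW4 strain, fed bacteria that make double-stranded RNA and sampled as regenerating head, trunk and tail fragments at 48 hours post amputation (hpa). The groups were *fbl-1* KD, a knockdown by RNA interference (RNAi) with 4x food, its *egfp* KD controls with no stated food strength, *fbl-2* KD with 2x food, and its own controls labelled *egfp* 2x KD. Both genes are homologs of fibrillarin, the enzyme that methylates ribosomal RNA. The knockdown worms had 5 feedings and were starved for 7 days, and the feedings of the controls are not stated. Each group had 3 replicates, and each replicate was the lysate of 30 worms, with 25% used for RNA-seq (mRNA) and 75% for Ribo-seq, which counts the mRNA fragments covered by ribosomes (footprints). Footprint libraries go by their column names, with no pairing to mRNA libraries. All worms were amputated, so the induction of these genes by wounding was not measured.

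In planarians a cut starts a generic program within hours, in which transcription factors of the immediate early kind, among them Jun and Fos proteins, come first and secreted signals follow. *runt-1* encodes a Runx family transcription factor that is induced in neoblasts, the planarian stem cells. *nlg-1* is a noggin-like gene of the BMP pathway, and *inhibin-1* encodes a ligand of the activin kind in the TGF-beta family. *wnt-1* encodes a secreted ligand that muscle cells make at wounds and that is needed for a tail to form, *wntless* encodes the carrier that brings Wnt ligands to the cell surface, and *glypican-1* a heparan sulfate proteoglycan of the cell surface, a protein kind that binds such ligands.

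The values are reads per gene multiplied by 1 factor per library and rounded, called scaled values below. Library totals were 8.762 to 9.55 (in units of 1e6) for mRNA and 9.117 to 10.764 for footprints. The levels of different genes are not compared, since gene lengths were not used. The 2 knocked-down genes were both higher in the libraries that carry their name. *fbl-1* mRNA was 1383, 981 and 753 in libraries labelled *fbl-1* KD and 143, 130 and 129 in *egfp* KD, and *fbl-2* mRNA was 481, 773 and 982 in the libraries labelled *fbl-2* KD and 127, 135 and 144 in *egfp* 2x KD. The paper reports efficient knockdown of both mRNAs by quantitative PCR and in situ hybridization. These values do not show that loss, and the reason was not tested. The directions given below thus follow the labels of the libraries, and a knockdown effect means the difference between labelled groups. Footprint libraries egfp-3 (*egfp* KD) and fbl-2_2 (*fbl-2* KD) stood apart, with 414 and 451 tested genes at 0 where the other libraries had 0 to 269. Many footprint results of the wound response genes are therefore also given without them. Footprint results of marker genes and related genes are given only with them.

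The first comparison asks which wound response mRNAs differed in the libraries labelled *fbl-1* KD. *jun-1* and *nlg-1* were the 2 genes with lower values in every one of these libraries, and neither passed the test. The test was limma on log2(value + 1) over all genes with a value of at least 10 in at least 3 libraries, with Benjamini-Hochberg adjusted p-values over every gene tested and a threshold of 0.05. Of the 8 genes 0 passed, against 5.04% of all 12965 genes tested, and 2 of 8 had an unadjusted p under 0.05, against 20.3% of all genes. The median log2 change was -0.05 for the 8 genes and -0.01 for all genes. The values come from whole fragments, so fewer cells of a type and less RNA per cell cannot be told apart in any result here.

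*jun-1* mRNA was 2067, 2125 and 1952 in libraries labelled *fbl-1* KD and 2595, 2590 and 2732 in *egfp* KD. The 3 replicates of each group were close together and the groups did not overlap. The means were 2048 ± 88.1 and 2639 ± 80.6 (SD, n = 3 each), and the log2 change was -0.37 (95% interval -0.59 to -0.14, limma adjusted p = 0.0596). *nlg-1* mRNA was 42, 75 and 68 in libraries labelled *fbl-1* KD and 139, 89 and 107 in *egfp* KD. The groups did not overlap here either, but the replicates were spread further, with means of 61.7 ± 17.4 and 111.7 ± 25.3 (SD, n = 3 each). The log2 change of *nlg-1* was -0.86 (95% interval -1.41 to -0.32, limma adjusted p = 0.0648). Over all genes tested, 12.7% were lower with no overlap of the groups and 11% were higher with none.

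Settings moved both calls. *jun-1* passed when library totals were set equal (log2 change -0.42, limma adjusted p = 0.0329). *nlg-1* passed without *egfp* KD replicate 2 (-1.01, limma adjusted p = 0.0460) and without *fbl-1* KD replicate 2 (-1.02, limma adjusted p = 0.0454). Over all alternatives *jun-1* had changes of -0.42 to -0.33, with limma adjusted p of 0.0329 to 0.249. Those of *nlg-1* were -1.02 to -0.61, with limma adjusted p of 0.0454 to 0.247.

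The other 6 mRNAs overlapped between the groups. *fos-1* was 1313, 1404 and 1264 in libraries labelled *fbl-1* KD and 1253, 1296 and 1500 in *egfp* KD, a log2 change of -0.02 with a 95% interval of -0.26 to 0.22. *wntless* was 370, 391 and 297 in libraries labelled *fbl-1* KD and 341, 425 and 561 in *egfp* KD, a log2 change of -0.31 (95% interval -0.67 to 0.06). The highest *egfp* KD replicate lay well above the rest. *glypican-1* was 1135 to 1285 in libraries labelled *fbl-1* KD and 1129 to 1319 in *egfp* KD, with a 95% interval of -0.27 to 0.22 for the log2 change, and *inhibin-1* was 64 to 99 and 63 to 108 in the same order, with an interval of -0.62 to 0.45. For the rare mRNAs the intervals were wide. *wnt-1* was 17 to 27 in libraries labelled *fbl-1* KD and 18 to 25 in *egfp* KD (log2 change 0.15, 95% interval -0.62 to 0.93). *runt-1* was 22, 22 and 50 in libraries labelled *fbl-1* KD and 22, 32 and 26 in *egfp* KD (log2 change 0.13, 95% interval -0.66 to 0.92), so that a single replicate set its mean.

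**Figure D1:**
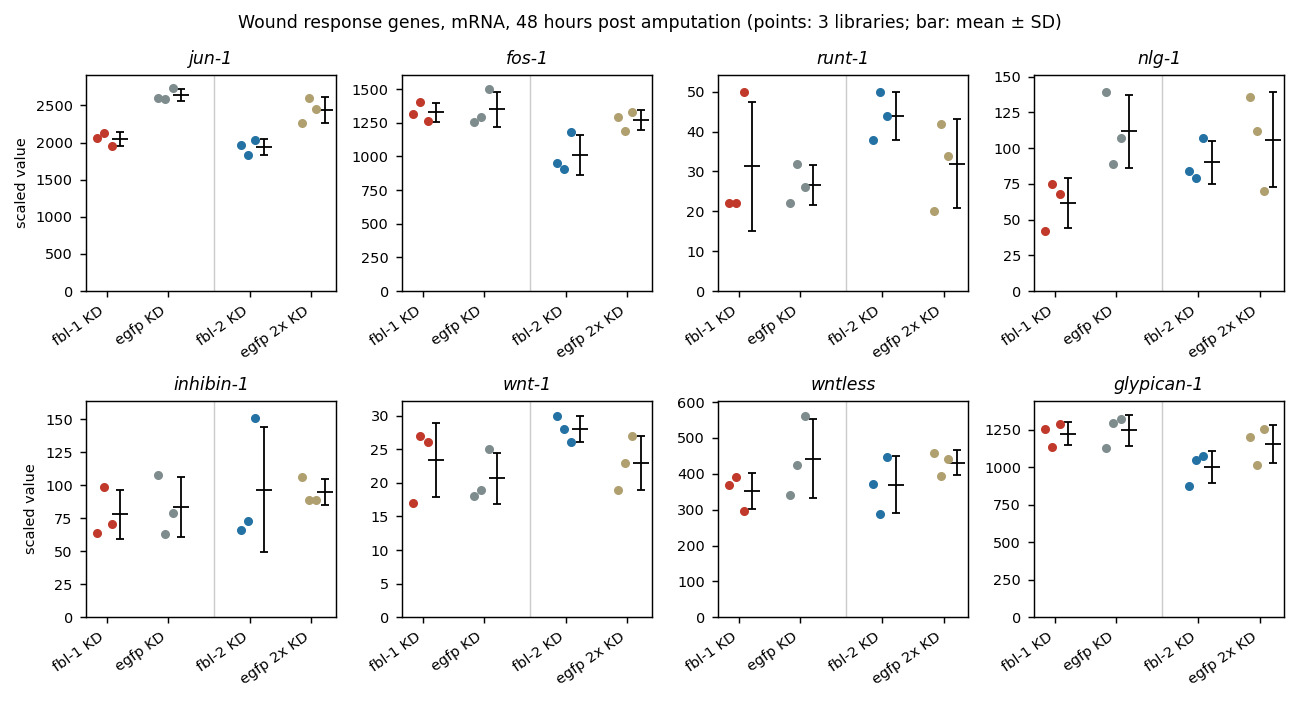
mRNA of the 8 wound response genes in scaled values (vertical axes, from 0), with 1 point per library, the mean and its SD, for fbl-1 KD beside egfp KD and fbl-2 KD beside egfp 2x KD. The jun-1 points of both knockdowns lie between 1826 and 2125 and the control points between 2261 and 2732. The 2 arms are scaled apart, so points are compared within an arm.

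The same question was put to *fbl-2* KD. *jun-1* and *fos-1* were lower in every library labelled *fbl-2* KD than in every *egfp* 2x KD library, and again no gene passed. Of the 8 genes 0 passed, against 0.363% of 12958 genes tested, and 2 of 8 had an unadjusted p under 0.05, against 9.93% of all genes. The median log2 change was -0.20 for the 8 genes and 0.00 for all genes.

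*jun-1* mRNA was 1971, 1826 and 2029 in the libraries labelled *fbl-2* KD and 2261, 2605 and 2453 in *egfp* 2x KD. The means were 1942 ± 105 and 2440 ± 172 (SD, n = 3 each), with a log2 change of -0.33 (95% interval -0.60 to -0.06, limma adjusted p = 0.416). *fos-1* mRNA was 948, 905 and 1181 in the libraries labelled *fbl-2* KD and 1294, 1187 and 1332 in *egfp* 2x KD. The gap between the groups was small, 1181 against 1187. The log2 change of *fos-1* was -0.34 (95% interval -0.64 to -0.04, limma adjusted p = 0.452). Of all genes tested, 7.91% were lower with no overlap of the groups.

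*nlg-1*, at 84, 79 and 107 in the libraries labelled *fbl-2* KD and 136, 112 and 70 in *egfp* 2x KD, overlapped between the groups (log2 change -0.19, 95% interval -0.75 to 0.36). *runt-1* was 38, 50 and 44 in the libraries labelled *fbl-2* KD and 20, 42 and 34 in *egfp* 2x KD, and its log2 change of 0.50 had an interval of -0.18 to 1.18. *wnt-1* was 26 to 30 in the libraries labelled *fbl-2* KD and 19 to 27 in *egfp* 2x KD (log2 change 0.28, 95% interval -0.37 to 0.94). *inhibin-1* was 66, 73 and 151 in the libraries labelled *fbl-2* KD and 106, 89 and 89 in *egfp* 2x KD. A single high replicate thus brought the 2 means close, 96.7 ± 47.2 and 94.7 ± 9.81 (SD, n = 3 each). *wntless* (288 to 447 in *fbl-2* KD, 393 to 459 in *egfp* 2x KD) and *glypican-1* (876 to 1074 and 1011 to 1253) had log2 changes of -0.24 and -0.21.

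Each knockdown has its own controls, so the 2 effects were averaged, and their difference asks for a change that sets them apart. A mean effect can pass through 1 knockdown alone, so by itself it does not show a change in both. *jun-1* mRNA fell in the mean of both knockdowns, by 0.35 on the log2 scale, and it was the single gene of the 8 that passed. This result is built from the *jun-1* values already given and is not independent of them. The log2 change was -0.35 (SE 0.07, 95% interval -0.50 to -0.19, limma adjusted p = 0.00818), or 1.27-fold lower. Within each arm the 3 knockdown libraries lay below the 3 control libraries. Lower values with no overlap were found for 12.7% of all genes tested in *fbl-1* KD and 7.91% in *fbl-2* KD. The share of genes with this in both arms was not counted. The 1 of 8 that passed stands against 6.95% of 12828 genes tested, and 3.62% of all genes passed in the lower direction. Leaving out each of the 12 mRNA libraries in turn gave *jun-1* changes of -0.37 to -0.32. The limma adjusted p was 0.00846 to 0.0311, so the call held in each of these fits. With the replicate number as a block *jun-1* did not pass (limma adjusted p = 0.0793), though the numbers were not taken as pairs. The difference between the 2 knockdowns for *jun-1* mRNA was -0.04 (95% interval -0.34 to 0.27).

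No other wound response gene passed for the mean mRNA effect. *nlg-1* had a mean change of -0.53 (95% interval -0.93 to -0.12, limma adjusted p = 0.108) and passed without *egfp* 2x KD replicate 3, the control with the lowest value (-0.66, limma adjusted p = 0.0440). *wntless* and *fos-1* had mean changes of -0.27 and -0.18, with limma adjusted p = 0.225 for both. The remaining 4 lay between -0.12 (*glypican-1*) and 0.32 (*runt-1*). For the difference between the knockdowns 0 of the 8 passed, against 0.164% of all genes, and 0 of the 8 had an unadjusted p under 0.05 with limma, against 5.32% of all genes. The differences of largest size were -0.67 for *nlg-1* (95% interval -1.48 to 0.14), -0.37 for *runt-1* (95% interval -1.42 to 0.68) and 0.32 for *fos-1* (95% interval -0.05 to 0.68). RNAi food strength differs between the arms along with the target, and these cannot be told apart.

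**Figure D2:**
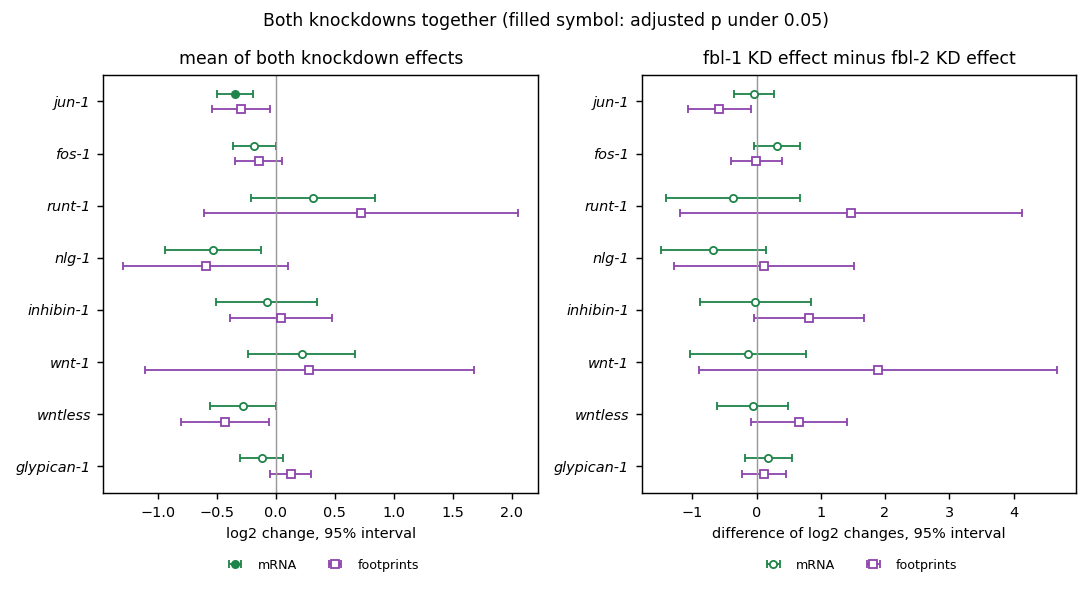
Mean of both knockdown effects (left, log2 change) and fbl-1 KD effect minus fbl-2 KD effect (right, difference of log2 changes) for each of the 8 genes, with 95% intervals, for mRNA (circles) and footprints (squares). The jun-1 mRNA symbol at -0.35 on the left is the only filled one, with an adjusted p under 0.05.

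Footprints show what the ribosomes carried. In the libraries labelled *fbl-1* KD, 0 of the 8 genes passed, against 0.872% of 12503 genes tested, and *jun-1* alone had an unadjusted p under 0.05, against 15.2% of all genes. The median log2 change was 0.04 for the 8 genes and 0.02 for all genes.

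*jun-1* footprints were 1801, 1318 and 1334 in libraries labelled *fbl-1* KD and 2128, 1732 and 2880 in *egfp* KD. A single library of each group overlapped, 1801 against 1732. The log2 change was -0.58 (95% interval -1.04 to -0.13, limma adjusted p = 0.216), and -0.39 without library egfp-3, which has the highest value (limma adjusted p = 0.287). *glypican-1* was the only member whose footprints were higher in every library labelled *fbl-1* KD, with 2092, 1943 and 2044 against 1821, 1785 and 1742 in *egfp* KD. Its log2 change was small, 0.18 (95% interval -0.09 to 0.46, limma adjusted p = 0.509), and 11.3% of all genes tested were higher with no overlap.

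The rare footprints turned on library egfp-3. *wnt-1* footprints were 59, 27 and 46 in libraries labelled *fbl-1* KD and 39, 50 and 2 in *egfp* KD, and *runt-1* footprints were 47, 55 and 25 in libraries labelled *fbl-1* KD and 34, 31 and 2 in *egfp* KD. The value of 2 for both genes is that of library egfp-3. The log2 change of *wnt-1* was 1.23 (95% interval -1.0 to 3.46) and turned to -0.07 without that library, and that of *runt-1* was 1.46 (95% interval -0.65 to 3.57) and became 0.30 without it. *nlg-1* footprints were 53, 128 and 130 in libraries labelled *fbl-1* KD and 185, 216 and 68 in *egfp* KD. Here too library egfp-3 was the lowest control, and the log2 change was -0.54 (95% interval -1.64 to 0.56) with it and -1.05 without it (limma adjusted p = 0.193). *inhibin-1* (214 to 335 in *fbl-1* KD, 141 to 297 in *egfp* KD), *wntless* (577 to 980 and 651 to 1159) and *fos-1* (1355 to 1836 and 1554 to 1877) overlapped, with log2 changes of 0.45, -0.10 and -0.14. Without library egfp-3 these changes were 0.21 for *inhibin-1*, -0.31 for *wntless* and -0.087 for *fos-1*.

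In *fbl-2* KD the gene that stood out was *wntless*. Its footprints were 388, 346 and 412 in the libraries labelled *fbl-2* KD and 449, 885 and 679 in *egfp* 2x KD. The groups did not overlap, and the controls were spread over a wide range. The means were 382 ± 33.4 and 671 ± 218 (SD, n = 3 each), with a log2 change of -0.76 (95% interval -1.21 to -0.31, limma adjusted p = 0.0595), which did not pass. It passed without library egfp_2x_1, the lowest control (-1.02, limma adjusted p = 0.0242), and with a pseudocount of 8 (limma adjusted p = 0.0409). It also passed with a filter at 50 (limma adjusted p = 0.04996) and with a robust variance (limma adjusted p = 0.0494). Without library fbl-2_2, which has the lowest value, *wntless* did not pass (-0.69, limma adjusted p = 0.0752). Over all alternatives its change was -1.02 to -0.53, with limma adjusted p of 0.0242 to 0.487. Of the 8 genes 0 passed, against 3.12% of 12612 genes tested, and 1 had an unadjusted p under 0.05, against 13.6% of all genes.

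*nlg-1* footprints were also lower in every library labelled *fbl-2* KD, with 57, 76 and 73 against 82, 93 and 162 in *egfp* 2x KD. The change was -0.65 on the log2 scale, with an interval from -1.63 to 0.34 (limma adjusted p = 0.613). Lower values with no overlap occurred for 8.96% of all genes tested. *jun-1* footprints overlapped between the groups, with 2492, 2152 and 2678 in the libraries labelled *fbl-2* KD and 2515, 2464 and 2324 in *egfp* 2x KD, a log2 change of -0.0013 with a 95% interval of -0.22 to 0.22. *fos-1* (1624 to 1883 in *fbl-2* KD, 1871 to 2050 in *egfp* 2x KD) and *glypican-1* (1787 to 2105 and 1761 to 1980) had log2 changes of -0.14 and 0.07. Without library fbl-2_2 the changes were 0.086 for *jun-1*, -0.070 for *fos-1* and 0.14 for *glypican-1*. *inhibin-1* footprints were 140 to 177 in the libraries labelled *fbl-2* KD and 175 to 218 in *egfp* 2x KD, a log2 change of -0.36 (95% interval -1.02 to 0.29). That change was -0.47 without library fbl-2_2.

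*wnt-1* footprints were 27, 11 and 28 in the libraries labelled *fbl-2* KD and 58, 20 and 30 in *egfp* 2x KD. The value of 11 is that of library fbl-2_2, and the log2 change was -0.66 (95% interval -2.48 to 1.16) with it and -0.24 without it. *runt-1* footprints were 15, 38 and 87 in the libraries labelled *fbl-2* KD and 50, 24 and 43 in *egfp* 2x KD, so the knockdown libraries spanned the controls on both sides (log2 change -0.01, 95% interval -1.62 to 1.6).

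**Figure D3:**
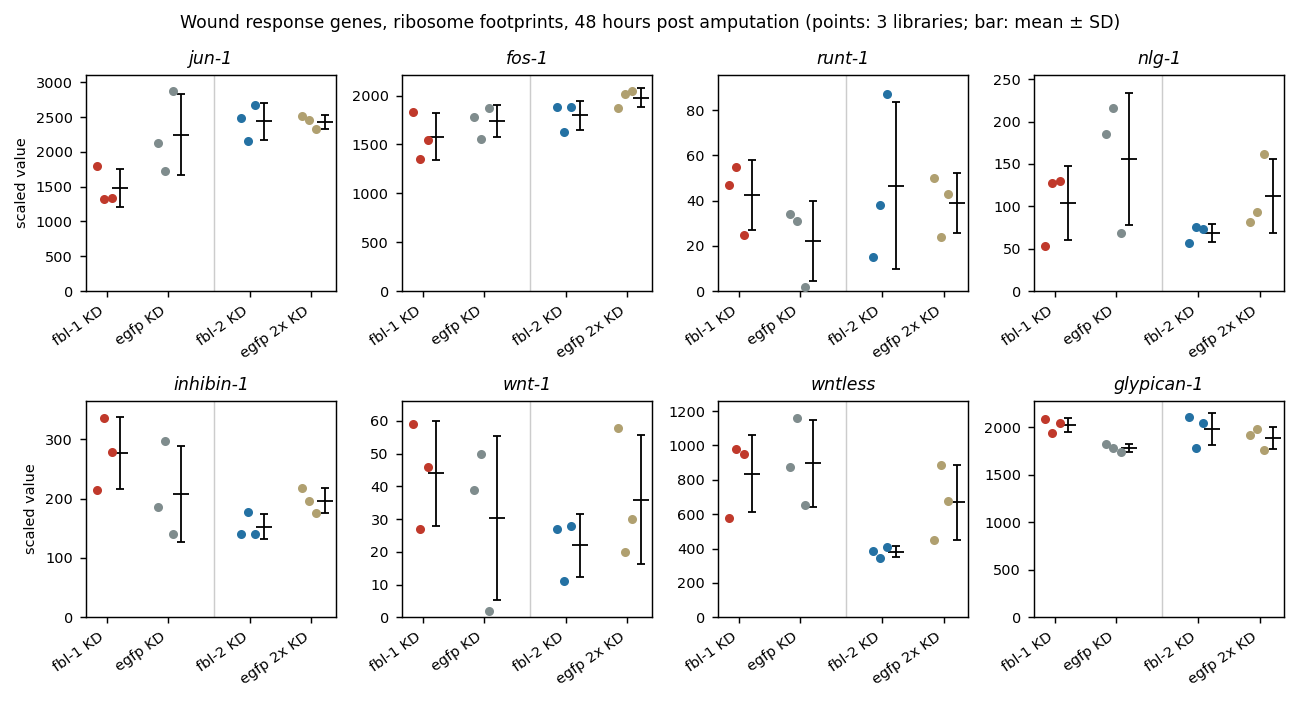
Ribosome footprints of the 8 wound response genes in scaled values (vertical axes, from 0), with 1 point per library, the mean and its SD, for fbl-1 KD beside egfp KD and fbl-2 KD beside egfp 2x KD. The wntless points of fbl-2 KD lie between 346 and 412, below the egfp 2x KD points at 449 to 885, and the wnt-1 and runt-1 points at 2 belong to library egfp-3.

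Over both knockdowns together, 0 of the 8 genes passed for the mean footprint effect, against 6.55% of 12259 genes tested. At an unadjusted p under 0.05 there were 2 of 8 with limma, *jun-1* (log2 change -0.29, adjusted p = 0.163) and *wntless* (-0.43, limma adjusted p = 0.176), against 20.3% of all genes. The mean effect of *nlg-1* was -0.59 (95% interval -1.29 to 0.11). For the difference between the knockdowns 0 of 8 passed, against 0.122% of all genes, and *jun-1* had the only unadjusted p under 0.05, against 6.26% of all genes. The footprint effect on *jun-1* was lower for *fbl-1* KD than for *fbl-2* KD by a log2 difference of -0.58 (95% interval -1.07 to -0.09, limma adjusted p = 0.75). The differences for *inhibin-1*, 0.82 (95% interval -0.04 to 1.68), and *wntless*, 0.66 (95% interval -0.09 to 1.41), did not pass either. Without both sparse libraries, egfp-3 and fbl-2_2, an alternative chosen after seeing the data, 0 of the 8 passed for the mean and 0 for the difference. The mean effect was then -0.89 for *nlg-1* (limma adjusted p = 0.0808), -0.15 for *jun-1* (limma adjusted p = 0.435) and -0.50 for *wntless* (limma adjusted p = 0.110). The difference between the knockdowns was then -0.47 for *jun-1*, 0.68 for *inhibin-1* and 0.38 for *wntless*, and without library egfp-3 alone that of *jun-1* was -0.39.

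Translation efficiency (TE) is the footprint change less the mRNA change, tested as the interaction of knockdown and assay over the 12 libraries of an arm. Of the 8 genes 0 passed in *fbl-1* KD and 0 in *fbl-2* KD, and limma called 0% of 12243 and 0% of 12364 genes tested. At an unadjusted p under 0.05 there were 0 of 8 in each knockdown, against 4.97% and 5.76% of all genes. The value with the smallest p was that of *jun-1* in *fbl-2* KD, a TE change of 0.33 on the log2 scale (95% interval -0.01 to 0.67, limma adjusted p = 0.885). This TE change was 0.41 without library fbl-2_2. In the libraries labelled *fbl-1* KD the TE change of *jun-1* was -0.22 (95% interval -0.72 to 0.29), and -0.020 without library egfp-3.

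*wntless* had a TE change of -0.52 in *fbl-2* KD (95% interval -1.17 to 0.14) and 0.21 in *fbl-1* KD (95% interval -0.53 to 0.95). The TE change of *glypican-1* was 0.28 (95% interval -0.11 to 0.66) in *fbl-2* KD and 0.21 (95% interval -0.12 to 0.53) in *fbl-1* KD, and that of *fos-1* was 0.20 in *fbl-2* KD and -0.12 in *fbl-1* KD. Without library egfp-3 the TE changes in *fbl-1* KD were -0.0038 for *wntless* and -0.066 for *fos-1*. Those in *fbl-2* KD without library fbl-2_2 were -0.45 for *wntless*, 0.35 for *glypican-1* and 0.27 for *fos-1*. For *wnt-1* and *runt-1* the TE was known least well. In the libraries labelled *fbl-1* KD their TE changes were 1.08 (95% interval -1.41 to 3.56) and 1.3 (95% interval -1.01 to 3.67), and without library egfp-3 they were -0.23 and 0.17.

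**Figure D4:**
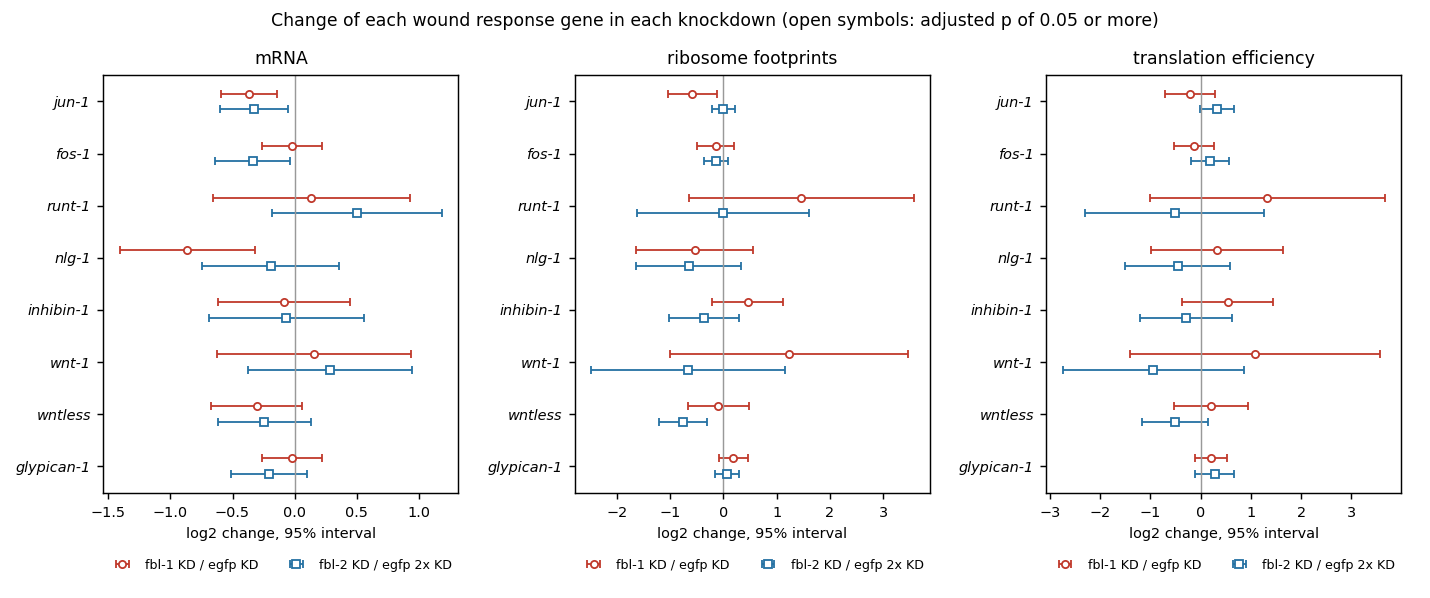
Log2 change of each wound response gene with its 95% interval for mRNA (left), footprints (middle) and translation efficiency (right), in fbl-1 KD against egfp KD (circles) and in fbl-2 KD against egfp 2x KD (squares). All symbols are open, since no gene passed in a single knockdown, and the intervals of wnt-1 and runt-1 are the widest within the footprint panel.

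Markers of other cell types moved in the same libraries, and their part in the *jun-1* result was not tested. The summed mRNA of the 3 neoblast markers *piwi-1*, *VASA-1* and *MCM2* was 11938 to 12837 in libraries labelled *fbl-1* KD and 17823 to 19215 in *egfp* KD. In the other arm the sum was 14797 to 16936 in the libraries labelled *fbl-2* KD and 17534 to 18275 in *egfp* 2x KD. Of these markers *piwi-1* and *MCM2* fell in *fbl-1* KD, and *piwi-1* fell in the mean of both knockdowns (log2 change -0.45, limma adjusted p = 0.0081). The *piwi-1* change was -0.70 in *fbl-1* KD and -0.21 in *fbl-2* KD, where it did not pass (limma adjusted p = 0.735). The summed mRNA of 24 muscle genes was 105954 to 149395 in libraries labelled *fbl-1* KD and 88112 to 114028 in *egfp* KD. In the other arm it was 99338 to 181401 in *fbl-2* KD and 85016 to 129798 in *egfp* 2x KD. Of the 23 tested, 6 rose and 1 fell in the mean of both knockdowns, against 3.34% and 3.62% of all genes tested. The muscle genes were found by symbol, like the related genes below, in supplementary lists sorted by change in these same samples. Their counts are therefore not independent evidence of a direction. The summed mRNA of the 5 epidermal lineage markers overlapped in both arms, with 3428 to 3706 in libraries labelled *fbl-1* KD and 3270 to 4343 in *egfp* KD, and 3540 to 4138 in *fbl-2* KD and 3352 to 3619 in *egfp* 2x KD. Members of this list moved in opposite directions. *egr-5*, a transcription factor of the epidermal lineage, rose in *fbl-1* KD (log2 change 0.52, limma adjusted p = 0.0423) and in the mean of both knockdowns (0.63, limma adjusted p = 0.0023), and *prog-1*, a marker of early epidermal progenitors, fell in *fbl-1* KD (-0.57, limma adjusted p = 0.0427). In the mean footprint effect, with all libraries kept, *egr-5* rose (0.48), and *prog-1* (-0.87), *zpuf-4* (-0.83), *piwi-1* (-0.52) and *VASA-1* (-0.35) fell. The *VASA-1* footprint change was -0.70 in *fbl-1* KD and 0.006 in *fbl-2* KD, and that of *egr-5* was 0.13 and 0.83 in the same order. *prog-1*, *zpuf-4* and *piwi-1* had negative footprint changes in both knockdowns. No marker of the 3 lists was at 0 in every library of a group.

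Related genes give the setting in which the 8 genes lie. They were found by symbol in the entries of 2 supplementary lists that are sorted by change in these same samples, so their counts are not independent evidence of a direction. Of 12 early response factors tested, 3 rose and 0 fell in the mean mRNA effect, against 3.34% and 3.62% of all genes tested. They were *KLF13* (log2 change 0.61, limma adjusted p = 0.0036), a zinc finger factor, *DUSP6* (0.41, limma adjusted p = 0.0100), a phosphatase that switches off ERK, and *EGR1* (1.20, limma adjusted p = 0.0208), an immediate early zinc finger factor. *KLF13* (0.83) and *DUSP6* (0.58) also rose in the *fbl-1* KD comparison, where 336 of all 12965 genes tested rose. In the *fbl-2* KD comparison 0 of the 12 rose, where 21 of all 12958 genes tested did. The list median was 0.37 and that of all genes -0.01, beside the *jun-1* mRNA change of -0.35. Since the list was drawn from lists sorted by change, its median is not an independent reference for *jun-1*.

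Of 6 further TGF-beta and BMP pathway genes tested, 3 rose and 2 fell in the mean mRNA effect, where 3.34% of all genes rose and 3.62% fell. *BMP1* (0.59, limma adjusted p = 0.000743) and *TLL2* (0.35, limma adjusted p = 0.0166) belong to the tolloid proteases, which free BMP ligands by cutting their inhibitors, and *NOG* (SMED30002427, 0.59, limma adjusted p = 0.0296) matches the BMP inhibitor noggin, as *nlg-1* does. *SMAD7* (-0.59, limma adjusted p = 0.0058), an inhibitor of the pathway inside the cell, and *INHBA* (-0.56, limma adjusted p = 0.0074), an activin subunit, fell. *INHBA* footprints fell in *fbl-2* KD as well (-0.79, limma adjusted p = 0.0029). *inhibin-1*, another gene of the activin kind, had a mean mRNA change of -0.08 (95% interval -0.51 to 0.35).

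Of 11 further Wnt pathway genes tested, 0 rose and 4 fell in the mean mRNA effect, where 3.34% of all genes rose and 3.62% fell. The 4 included the frizzled receptor *FZD4* (SMED30023158, -0.60, limma adjusted p = 0.00126), *SFRP5* (-0.79, limma adjusted p = 0.0032), which matches secreted Wnt inhibitors, and *TCF7* (-0.50, limma adjusted p = 0.0104), the transcription factor at the end of the pathway. The other called gene, *FZD5* (-0.36, limma adjusted p = 0.0412), also a frizzled receptor, lies outside the naming rule and was named after its value was seen. All 11 had a negative mRNA change in both knockdowns. With each knockdown taken singly, 6711 of all 12965 genes were negative in *fbl-1* KD and 6452 of 12958 in *fbl-2* KD. The share of all genes negative in both was not counted. Their median log2 changes were -0.55 in *fbl-1* KD and -0.46 in *fbl-2* KD, where the medians of all genes were -0.01 and 0.00. In footprints 2 of the 11 had a positive change in *fbl-1* KD and 3 in *fbl-2* KD, with medians of -0.22 and -0.21. None was called there in either knockdown, against 0.872% and 3.12% of all genes. In the mean footprint effect 0 of the 11 rose and 1 fell (limma adjusted p = 0.0380), where 446 of all 12259 genes tested fell. The mean mRNA change of *wnt-1*, the ligand, was 0.22 (95% interval -0.23 to 0.67), and that of *wntless* was -0.27 (95% interval -0.55 to 0.00). Of 3 matrix metalloproteases, enzymes that cut the extracellular matrix, *MMP13* (0.62, limma adjusted p = 0.000896) and *MMP25* (0.36, limma adjusted p = 0.0154) rose and 0 fell.

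The mRNA profiles of the 8 genes over the 12 mRNA libraries were set against 12827 other genes, as the root mean square difference between log2 profiles that were each centred on their own mean. The 4 genes that varied most were *runt-1* (SD 0.48), *nlg-1* (SD 0.48), *inhibin-1* (SD 0.37) and *wntless* (SD 0.27). The profile closest to *wntless* was that of SMED30006924 (difference 0.11), and the closest to *nlg-1* was that of SMED30026678 (0.20). *inhibin-1* was closest to SMED30014673 (0.19), and *runt-1* to SMED30014358 (0.30) and *ARF3* (0.31). This likeness is a description, since the libraries share their worms and scaling within an arm.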

How the data were processed

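The authors trimmed reads with Cutadapt 1.8.1 and Sickle 1.33, removed rRNA reads, aligned the rest to the transcriptome smed_2010614 with Tophat2 2.0.14 and counted unique reads per gene with featureCounts 1.6.2. Footprints came from RNase A digestion and were 30 to 40 nt long. The deposited values are signal values, that is reads times 1 factor per library, rounded, with no stated rule for the factor. They are not the TPM that the methods name. Since they are not counts, no count test was used, and 24 columns were tested on log2(value + 1) with limma 3.58.1 in R 4.3.3 with a variance that follows the mean. All 24 columns were used. Between 3 and 3 libraries an exact permutation test cannot give a p below 0.1, so none was run. Nothing states that replicates are separate cultures, so p-values measure the spread between these lysates.

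Named genes were the 9 listed genes (1 not analysed here), the knocked-down genes, markers as sums or where called, and in the symbol lists up to 3 called genes per direction by smallest p. The members and lists were chosen with earlier results of these data known. The likeness of profiles was printed for the 4 genes with the largest SD. The alternatives were other pseudocounts (0.5 and 8), filters, scalings and variance models, a replicate block, and leaving out each library. Scripts were tested on simulated data.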

Additional observations from a re-analysis of the deposited data

How the results depend on the processing

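Over the settings that kept all libraries or left out both sparse ones, 657 of 668 changes of single wound response genes kept their direction and their side of the threshold, and 707 of 768 did so when a library was left out. The changes that turned included values near 0 and those of rare genes, and also some larger ones. The TE change of *nlg-1* in *fbl-1* KD was 0.33 and reached -0.19 with a library left out. That of *inhibin-1* in *fbl-2* KD was -0.30 and reached 0.074. The cause was not tested. Low values limit *wnt-1* and *runt-1*, which had 2 to 87 in the footprint libraries.

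With equal library totals 1 wound response mRNA passed in *fbl-1* KD in place of 0, *jun-1*. For *fbl-2* KD footprints 1 passed in place of 0, *wntless*, with a pseudocount of 8, with a filter at 50 and with a robust variance. limma without a mean trend gave 49 genes over all in place of 654 for *fbl-1* KD mRNA, 0 in place of 109 for its footprints, 2 in place of 47 for *fbl-2* KD mRNA, 2 in place of 394 for its footprints, 13 in place of 21 for the mRNA difference, 0 in place of 15 for the footprint difference and 308 in place of 803 for the mean footprint effect. Values that turned were the *fbl-2* KD footprint changes of *runt-1* (0.029 with a pseudocount of 8) and *jun-1* (0.0065 with equal library totals) and the footprint difference of *fos-1* (0.0036 with trimmed mean scaling). Without both sparse libraries the footprint difference of *nlg-1* was -0.32, and the mean footprint effects of *wnt-1* and *inhibin-1* were -0.16 and -0.13.

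With the replicate number as a block, which was possible for mRNA only, the mean mRNA effect passed for 0 wound response genes in place of 1. *jun-1* kept its change of -0.35 with a limma adjusted p = 0.0793. Over all genes the replicate block gave 413 calls in place of 654 (*fbl-1* KD), 13 in place of 47 (*fbl-2* KD), 248 in place of 892 (mean) and 5 in place of 21 (difference). Deviations of replicates with the same number correlated at 0.05, -0.14 and -0.09 in the *fbl-1* arm and at -0.15, -0.39 and -0.30 in the *fbl-2* arm, so the numbers were not taken as pairs.

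Leaving out 1 library at a time gave these ranges. Wound response genes called were 0 to 1 for *fbl-1* KD mRNA, 0 to 1 for *fbl-2* KD footprints and 1 to 2 for the mean mRNA effect. All genes called were 182 to 838 (*fbl-1* KD mRNA), 0 to 172 (its footprints), 13 to 91 (*fbl-2* KD mRNA), 187 to 559 (its footprints), 0 to 10 (its TE), 529 to 1162 (mean mRNA), 10 to 18 (mRNA difference) and 4 to 29 (footprint difference). For *fbl-1* KD the mRNA changes were -0.073 to 0.057 (*fos-1*), -0.095 to 0.028 (*glypican-1*), -0.25 to 0.32 (*runt-1*) and -0.27 to 0.12 (*inhibin-1*), the footprint changes -0.31 to 0.15 (*wntless*) and -0.074 to 1.97 (*wnt-1*), and the TE changes -0.19 to 0.75 (*nlg-1*), -0.0038 to 0.45 (*wntless*) and -0.23 to 1.82 (*wnt-1*). For *fbl-2* KD they were -0.46 to 0.010 (*nlg-1*) and -0.44 to 0.15 (*inhibin-1*) for mRNA, -0.071 to 0.086 (*jun-1*) and -0.62 to 0.61 (*runt-1*) for footprints, and -1.12 to 0.11 (*runt-1*) and -0.52 to 0.074 (*inhibin-1*) for TE. The mRNA differences were -0.087 to 0.016 (*jun-1*), -0.24 to 0.12 (*wntless*), -0.25 to 0.073 (*wnt-1*) and -0.24 to 0.35 (*inhibin-1*), and the footprint differences -0.40 to 0.53 (*nlg-1*) and -0.12 to 0.10 (*fos-1*). The mean effects were -0.26 to 0.034 (*inhibin-1*, mRNA), -0.37 to 0.65 (*wnt-1*, footprints) and -0.076 to 0.19 (*inhibin-1*, footprints).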
